A study of Mus musculus with 115 samples.

Results

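The unphased class of constructs held 14 pairs in which a construct named for a transcription factor motif had a partner of the same name with the ending _r. These pairs comprised 28 of the 122 constructs of the class. They were found by name alone, as every motif construct whose _r partner was also present. The labels and files used here do not define the ending _r, and the construct sequences were not used here, so a partner is described only by its name. The motifs were ATF4, BANP, CTCF, ESRRB, GABPA, MYBL2, NFYB, POU5F1::SOX2, POU5F1B, RARA::RXRA, REST, SOX2, TGIF1 and TRP53.

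In NOMe-seq, a GpC methyltransferase marks accessible cytosines in isolated nuclei, and bisulfite conversion then reads the marks. Methylation at GCH sites, where H is A, C or T, therefore reports accessibility without the cell's own CpG methylation. A nucleosome or a bound factor protects the DNA that it covers, so a bound motif typically reads low inside its footprint and high beside it.

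All constructs were measured by amplicon NOMe-seq in mouse embryonic stem cells labelled 129S6/SvEvTac, after integration at one recombinase-mediated cassette exchange locus. The series held 115 libraries, of which 36 were of the unphased class, with 2 libraries for each of 18 pools of constructs. No treatment, time or genotype separates the pools, which differ in the constructs they carry. Pairs lay in 6 of these pools and so in 12 libraries. Nothing in the labels says that the 2 libraries of a pool came from separate cultures, so p-values measure only the spread between libraries, which may be technical.

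In 13 pairs the motif and its partner lay in the same pool and were read in the same 2 libraries. ATF4, BANP and MYBL2 lay in pool 2, CTCF in pool 3, and POU5F1::SOX2, POU5F1B, REST and SOX2 in pool 4. NFYB, TGIF1 and TRP53 lay in pool 5, GABPA in pool 6 and RARA::RXRA in pool 9. ESRRB lay in pool 5 and its partner in pool 6, so that pair was never compared inside one library.

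Every construct of the pairs shared 14 flanking GCH sites with its partner, 9 upstream and 5 downstream of a window at positions 127 to 154 of the construct. The window is where sites varied between constructs of the class. It is not the edge of any single motif. Upstream sites lay 26, 59, 74, 77, 80, 84, 93, 105 and 119 bp from the window, and downstream sites 10, 33, 43, 56 and 89 bp from it. Partner constructs were more methylated upstream than downstream. Over the 13 same-pool pairs, the median partner level was 57.2% at the upstream site at 26 bp and 33.5% at the downstream site at 10 bp. The construct without a motif, in pool 1, read 61.6% ± 3.32 and 33.1% ± 0.764 at these sites (SD, n = 2). The files give fractions without read counts, so the depth behind each value is unknown.

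Within the 13 same-pool pairs, 209 shared sites were tested with limma on within-library differences of log2 odds of methylation, at a Benjamini-Hochberg adjusted p of 0.05. The test called 65 sites, 31.1% of those tested, of which 51 were higher in the motif construct and 14 lower. BANP, CTCF and REST held 42 of these calls at 49 sites. The other 10 pairs held 23 calls at 160 sites (14.4%), 16 higher and 7 lower. Without a test, 48 of the 209 sites (23.0%) differed by at least 10 percentage points with one sign in both libraries. The fit gave every site the same standard error of 0.22 on the log2 odds scale, so a difference carried a 95% half-width of 0.43 on that scale. Sites of one construct often moved together between libraries, so calls at neighbouring sites are not independent.

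CTCF, the zinc finger factor of insulators and chromatin loop anchors, showed the largest rise of all pairs. Its construct was more methylated than CTCF_r on both sides of the window and less methylated at one shared site inside it. At the site 10 bp downstream, CTCF read 87.1% and 91.9% in the 2 libraries and CTCF_r read 26.7% and 37.7%. The 2 constructs did not overlap, and the difference was 57.3 ± 4.38 percentage points (SD, n = 2; 4.08 on the log2 odds scale, adjusted p = 3.44e-44). The rise was 50.2 points at 33 bp, 46.1 at 43 bp and 38.6 at 56 bp. At 89 bp CTCF read 31.6% and 37.3% against 40.1% and 38.3% in CTCF_r, which did not pass (adjusted p = 0.345).

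Upstream of the window, CTCF read 88.6% and 93.6% at 26 bp against 62.8% and 61.9% in CTCF_r. That is a rise of 28.8 ± 4.17 points (adjusted p = 3.8e-23), about the size of the 27.8 points at 59 bp. The rise was 20.2 points at 84 bp and 10.9 ± 1.11 at 93 bp (adjusted p = 0.00491). At 105 bp the constructs overlapped, with CTCF at 74.2% and 60.3% and CTCF_r at 69.6% and 66.1% (adjusted p = 0.956). The farthest site, at 119 bp, was lower in CTCF, at 43.6% and 36.9% against 51.3% and 48.9%. Its adjusted p of 0.0353 rose past 0.05 when the 2 constructs were fitted as unpaired groups.

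Inside the window CTCF was less methylated than its partner at one shared site and more methylated at the other. At position 151 it read 11.2% and 15.4% against 25.8% and 36.5% in CTCF_r, a difference, motif minus partner, of -17.8 ± 4.60 points (adjusted p = 8.49e-10). At position 128 it read 66.3% and 56.1% against 49.9% and 48.4%, a rise of 12.1 ± 6.10 points (adjusted p = 0.00626). Sites that only one member holds cannot be compared with the partner. CTCF held such sites at position 133, with 4.13% and 13.98%, at position 146, with 7.49% and 13.5%, and at position 154, with 67.3% and 70.1%. CTCF_r held positions 135 and 147, at means of 45.8% ± 1.60 and 39.0% ± 1.60 (SD, n = 2). The low readings of CTCF thus lay between positions 133 and 151, with readings above 50% at positions 128 and 154 on either side of them.

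REST, the repressor of neuronal genes in cells that are not neurons, showed the deepest fall inside the window. At position 134 REST read 5.57% and 5.40% and REST_r read 52.7% and 66.0%. The difference was -53.9 ± 9.57 points (SD, n = 2; -4.43 on the log2 odds scale, adjusted p = 1.15e-48). All 3 shared window sites fell. Position 127 was at 7.53% and 7.63% against 50.4% and 62.1%, and position 152 at 11.4% and 13.7% against 50.7% and 60.7%. A further site held by REST alone, position 148, read 3.86% and 4.54%, while position 142, held by REST_r alone, read 51.6% and 63.9%. The 4 readings of REST were thus all under 15% across the window, whereas those of REST_r were all above 50%.

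On the flanks REST rose. At 10 bp downstream it read 82.8% and 85.0% against 38.0% and 46.5% in REST_r, a rise of 41.6 ± 4.45 points (adjusted p = 5.87e-26). The rise was 37.4 points at 33 bp, 36.5 at 43 bp and 30.9 ± 0.328 at 56 bp. At 89 bp the difference was 3.75 ± 3.70 points (adjusted p = 0.429). Upstream, REST read 86.2% and 90.7% at 26 bp against 55.2% and 72.9%, a rise of 24.4 ± 9.32 points in which the partner's libraries differed most. The rise was 11.7 ± 0.219 points at 93 bp (adjusted p = 0.00633), and the 5.43 ± 1.63 points at 105 bp did not pass (adjusted p = 0.287).

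BANP binds its motif at CpG island promoters. Its construct also rose on both flanks and fell inside the window, and its shared window sites read between 22.6% and 28.7%. At position 147 BANP read 23.5% and 22.6% against 57.5% and 52.6% in BANP_r, a difference of -32.1 ± 2.84 points (SD, n = 2; adjusted p = 1.22e-15). At position 133 it read 28.7% and 26.0% against 54.6% and 53.8%. Position 154, held by BANP alone, was high, at 80.3% and 74.8%. The low readings therefore stopped before the downstream end of the window.

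At 10 bp downstream BANP read 78.1% and 69.1% against 43.4% and 35.8%, a rise of 34.0 ± 0.969 points (adjusted p = 1.5e-16). The rise was 27.9 ± 7.78 points at 33 bp and 19.3 ± 7.56 at 56 bp. BANP was lower in library 2 than in library 1 at all 5 downstream sites, so the downstream mean difference was 27.6 points in library 1 and 16.4 in library 2. At 89 bp BANP read 40.3% and 27.1% against 30.2% and 33.9%, and the libraries moved in opposite directions (adjusted p = 0.824). Upstream, the rise was 22.6 ± 3.38 points at 26 bp, from 66.9% and 64.0% in BANP_r to 87.2% and 89.0%. It was 20.5 ± 1.48 points at 84 bp. At 105 bp BANP still read 72.5% and 80.03% against 59.2% and 66.0%, a rise of 13.6 ± 0.515 points (adjusted p = 0.000196). At 119 bp the rise of 6.81 ± 1.70 points did not pass (adjusted p = 0.189).

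The reach of a difference was taken as the distance to the last site of an unbroken run of called sites outward from the window. Downstream, the run ended at 56 bp for BANP, CTCF and REST alike, and the next site, at 89 bp, did not pass in any of them. The end therefore lies somewhere in an interval without a shared site. Upstream, the run covered 7 of 9 sites to 93 bp for CTCF and REST and 8 of 9 sites to 105 bp for BANP. Whether the reach of BANP differed from that of the other two was not tested, and BANP lay in another pool than either.

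Partners were higher upstream than downstream, and the comparison of the sides depended on the scale. At nearly equal distance, 59 bp upstream and 56 bp downstream, the rise of CTCF was 27.8 and 38.6 percentage points, but 2.37 and 2.35 on the log2 odds scale. For REST the rises at these sites were 1.57 and 1.81 on the log2 odds scale, and for BANP 1.44 and 1.11. Farther out the sides parted on both scales. At 84 and 93 bp upstream all 3 constructs passed, with log2 odds differences from 0.70 to 1.47. At 89 bp downstream the differences were -0.29 for CTCF, 0.25 for REST and 0.09 for BANP, and none passed. The difference between the sides was not itself tested.

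Distance was also compared in bands of 20 bp, with 40 of 130 combinations of pair and band called (30.8%). Downstream, the bands of 1 to 20, 21 to 40 and 81 to 100 bp each held 1 shared site. Upstream, those of 21 to 40 and 41 to 60 bp did too. In these bands the differences are those of the single sites above, so their counts add no further comparison. The band of 1 to 20 bp downstream held 7 higher and 1 lower of 13 pairs. The bands of 21 to 40 and 41 to 60 bp downstream each held 4 higher, and the first of them 1 lower. No pair was called at 81 to 100 bp downstream. Upstream, 4 pairs were higher and 1 lower at 21 to 40 bp, 3 higher at each of 41 to 60 and 61 to 80 bp, 4 higher at 81 to 100 bp, and 2 higher at 101 to 120 bp. In the window, 1 pair was higher and 5 were lower.

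Profiles over the 14 flanking sites were alike among these 3 pairs. The log2 odds differences of CTCF and REST had a Pearson r of 0.98 and a Spearman rho of 0.996, those of BANP and CTCF 0.888 and 0.886, and those of BANP and REST 0.835 and 0.859. These values run across sites of 1 locus that share libraries and neighbours, so they carry no p and describe shape alone. They were computed only for these 3 pairs, which had the most calls at the same sites, so no value from another pair stands beside them. Between the libraries of a pool, the flanking differences of a pair correlated at 0.962 for CTCF, 0.928 for REST and 0.516 for BANP. Over the other 10 same-pool pairs this value ran from -0.112 for RARA::RXRA to 0.883 for TGIF1. TGIF1, MYBL2, POU5F1B, SOX2, TRP53 and NFYB lay above BANP, so a high value was not particular to these 3 pairs.

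The promoter factors GABPA and NFYB had 1 called site between them. GABPA is an ETS family factor, and NFYB is a subunit of the complex that binds CCAAT boxes. NFYB passed at 1 of its sites, 10 bp downstream, where it read 46.7% and 39.7% against 31.5% and 30.1% in NFYB_r. The difference was 12.4 ± 3.97 points (SD, n = 2; adjusted p = 0.00307), and both libraries of the motif lay above both of the partner. For GABPA limma called 0 sites, and 0 had an unadjusted p under 0.05. Its differences ran from -7.20 to 1.08 points and were below 0 at 15 of 16 sites. The upstream mean difference of GABPA was -0.18 points in library 1 and -8.17 in library 2, so the libraries differed in its size.

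Among the motifs of the pluripotency network, POU5F1::SOX2 is the composite site bound jointly by both factors. Its construct was lower than the partner inside the window and higher downstream. At position 130 it read 30.1% and 37.3% against 42.5% and 48.8% in the partner, a difference of -11.9 ± 0.609 points (SD, n = 2; adjusted p = 0.00553). At position 149 the difference was -7.92 ± 0.285 points (adjusted p = 0.0279), and position 142, held by the motif construct alone, read 15.4% and 19.96%. Downstream it rose at the first 4 sites, to 56 bp. At 10 bp it read 34.6% and 37.4% against 25.0% and 26.5%, and the largest rise, 13.98 ± 1.71 points at 43 bp, came from 42.2% and 43.2% against 27.0% and 30.4% (adjusted p = 0.000496). At 56 bp the rise was 13.1 ± 2.13 points (adjusted p = 0.00121).

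Unlike the downstream rise, the upstream side of POU5F1::SOX2 differed between libraries. Its upstream mean exceeded that of the partner by 1.30 points in library 1 and 11.1 points in library 2. The motif construct read higher in library 2 at all 14 flanking sites, by a median of 7.65 points. One upstream site passed, 80 bp away, with a rise of 9.17 ± 11.7 points. Its adjusted p of 0.0353 rose past 0.05 when constructs were fitted as unpaired groups, as did that of position 149.

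POU5F1B, the motif named for a POU family factor related to POU5F1, was higher than its partner next to the window and inside it. It read 58.2% and 67.4% at 26 bp upstream against 45.7% and 54.1% in the partner, a rise of 12.9 ± 0.597 points (SD, n = 2; adjusted p = 0.00318). Inside the window, position 146 read 36.7% and 45.7% against 27.2% and 26.7% (adjusted p = 0.000302), and position 133 rose by 12.1 ± 6.24 points. At 10 bp downstream it read 31.8% and 42.4% against 25.8% and 22.0%, a rise of 13.2 ± 10.2 points (adjusted p = 0.000421). The run reached 26 bp upstream and 10 bp downstream. Its window thus moved in the opposite direction from that of POU5F1::SOX2, which shared its libraries. The difference between these pairs was not itself tested.

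SOX2, the HMG box factor of pluripotency, had 0 sites called by limma and 2 with an unadjusted p under 0.05. Its differences ran from -7.21 to 8.57 points. ESRRB, an orphan nuclear receptor of naive pluripotency, can be compared only across pools 5 and 6. In an unpaired limma fit over all 14 pairs, 62 of 225 sites were called (27.6%), of which 3 belonged to ESRRB, all lower. It read 30.7% and 31.4% at position 147 against 45.7% and 49.4% in ESRRB_r (adjusted p = 0.00115), and 38.4% and 37.6% at position 132 against 46.9% and 56.6% (adjusted p = 0.0126). At 10 bp downstream it read 29.3% and 29.2% against 38.1% and 42.7% (adjusted p = 0.0312). For this pair the constructs and the pools cannot be told apart. After subtraction of each pool's median, position 132 was no longer called, and the site at 33 bp downstream was called, also lower (adjusted p = 0.0278). That median includes the construct itself, so the subtraction removes part of the construct's own value. The log2 odds difference went from -0.99 to -0.50 at position 147 and from -0.70 to -0.60 at 10 bp downstream. The lost call therefore does not separate pool from construct.

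TRP53 is the mouse p53 tumour suppressor, a stress response factor. Its construct was lower at position 129 in the window, at 41.9% and 32.3% against 55.1% and 49.0% in TRP53_r, a difference of -14.9 ± 2.49 points (SD, n = 2; adjusted p = 0.000496). At 10 bp downstream it read 59.8% and 36.7% against 41.4% and 34.9%, a difference of 10.1 ± 11.7 points that came mostly from library 1. That site passed in the main test (adjusted p = 0.0291), but not with unpaired groups (adjusted p = 0.0965) or with robust moderation (adjusted p = 0.0585). The TRP53 construct was lower in library 2 than in library 1 at all 14 flanking sites, with a median change from library 1 to library 2 of -10.7 points, against -0.827 in TRP53_r.

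TGIF1, a homeodomain repressor, was lower than TGIF1_r inside and just downstream of the window. Position 148 read 28.3% and 29.4% against 47.8% and 41.3%, a difference of -15.7 ± 5.37 points (SD, n = 2; adjusted p = 0.000103). The differences at 10 and 33 bp downstream were -8.48 ± 4.08 points (adjusted p = 0.0353) and -10.1 ± 2.23 points (adjusted p = 0.0108). At 33 bp TGIF1 read 27.0% and 26.7% against 38.6% and 35.2%, with no overlap. The value at 10 bp lost its call with unpaired groups, with percentage points and with robust moderation. One upstream site, 93 bp away, was higher, at 50.9% and 52.4% against 40.7% and 38.9% (adjusted p = 0.00802). The other 6 constructs of the pool averaged from 49.2% to 53.2% at this site. The mean of TGIF1, 51.7%, lay inside that range, and that of TGIF1_r, 39.8%, lay below it.

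MYBL2, a MYB family factor of cell cycle genes, differed most from its partner at the far upstream end. At 119 bp it read 51.4% and 52.8% against 28.4% and 31.3% in MYBL2_r, a difference of 22.2 ± 1.11 points (SD, n = 2; adjusted p = 4.6e-08). The site at 26 bp was lower, at 62.4% and 61.1% against 75.0% and 70.4% (adjusted p = 0.00583). Sites at 74, 93 and 105 bp were higher by 9.41 to 13.4 points. No shared site in the window or downstream passed. The largest difference of this pair thus lay at the site farthest from the window, in contrast to BANP, CTCF and REST.

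ATF4, a factor of the integrated stress response, had 0 sites called and 0 with an unadjusted p under 0.05 in limma, with differences from -6.30 to 4.55 points. RARA::RXRA, the motif of the retinoic acid receptor heterodimer, had 0 called and 2 with an unadjusted p under 0.05, with differences from -7.38 to 3.17 points. A missed threshold does not show that these constructs and their partners were alike, given the half-width above.

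Which member of a pair stood apart was read against the other constructs of the same pool. The reference was the median of those others, which includes the construct's own partner where both share a pool. Pool 2 held 6 constructs in 3 pairs and pool 4 held 8 constructs in 4 pairs, so both held only members of pairs. In pool 5, 3 pairs and ESRRB were among 8 constructs. The reference in these pools is thus not a background independent of the pairs. Over all pools, 320 of 1941 combinations of construct and site were called (16.5%), and 202 of the 1672 at flanking sites (12.1%). The 320 calls became 179 without the replicate block and 444 when the mean of the other constructs replaced their median. Outside pool 3, where the only other construct is the partner, motif constructs were called at 36 of 182 flanking sites (19.8%), 30 higher and 6 lower. BANP and REST held 23 of these 36 calls, and the other 11 motif constructs were called at 13 of 154 sites (8.44%), 7 higher and 6 lower. Partners were called at 13 of 182 (7.14%), 3 higher and 10 lower. Constructs outside the pairs were called at 129 of 1280 (10.1%), 47 higher and 82 lower.

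BANP was higher than its pool at 11 of 14 flanking sites, and REST at 12, or at 10 and 11 without the replicate block. BANP_r had 0 flanking calls. REST_r had 2, both higher, and stood above its pool by 16.1 points at 10 bp downstream, but it had 0 calls against the mean of the others. For MYBL2 the order was the other way round. MYBL2 had 0 calls against its pool, whereas MYBL2_r was lower at 4 flanking sites and higher at 1, or lower at 2 without the replicate block. For POU5F1B, each member was set against its own median of the others, partner included. The departures of the members thus have no common reference. At 10 bp downstream POU5F1B lay at a difference of 10.96 points and POU5F1B_r at -10.7, both called, while the pair itself differed by 13.2 points. Against the mean of the others POU5F1B was higher at 0 flanking sites and lower at 1, and POU5F1B_r was lower at 5. At 26 bp upstream POU5F1B_r lay at a difference of -10.5 ± 1.72 points, which was called, and POU5F1B at 6.07 ± 4.40 points, which was not. Without the replicate block neither member had a flanking call. The POU5F1::SOX2 construct was higher at 4 flanking sites and its partner lower at 1. With the mean of the others as reference, the construct was higher at 1 and its partner lower at 4, so which member stood apart depended on the reference. For every other member of pool 4, REST_r and POU5F1B among them, the mean of the others includes REST. At 10 bp downstream REST averaged 83.9%, and the 6 pool members outside its pair averaged from 23.1% to 37.1%. A mean is drawn by such a value more than a median is. ESRRB was lower than the rest of pool 5 at 2 flanking sites, and ESRRB_r had 0 flanking calls in pool 6. Without the replicate block the ESRRB calls were lost, as was the one of the POU5F1::SOX2 partner, and POU5F1::SOX2 was higher at 3.

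The BANP pair was also read in 1 pool of each of the classes labelled nuc and non_nuc, in 3 libraries each, with the window in other surroundings. In nuc, differences of at least 10 percentage points in all 3 libraries ran to 36 bp upstream, over 4 sites, and to 33 bp downstream, over 3 sites. From 44 to 93 bp upstream, library 1 stood above the other libraries at most sites, though not at 74 bp. In libraries 1, 2 and 3 the differences were 36.2, 19.9 and -4.54 points at 44 bp. At 93 bp they were 34.0, -5.30 and -2.95 points. The nearest sites rose by 49.6 ± 5.16 points upstream, from 34.3% to 84.0%, and by 45.6 ± 7.46 points downstream, from 13.97% to 59.6% (SD, n = 3). The window sites at positions 181 and 196 of nuc differed by -2.51 ± 7.04 and -4.10 ± 11.5 points, with BANP_r at 16.3% and 10.6%. In non_nuc these positions were lower in BANP by differences of -35.2 ± 14.1 and -28.2 ± 7.97 points, with BANP_r at 58.0% and 47.7%. A further window site, position 203, was higher in BANP in both classes. It rose by 44.6 ± 0.157 points in nuc, from 13.8% to 58.4%, and by 32.5 ± 4.48 points in non_nuc, from 47.5% to 80.1%. In non_nuc the nearest upstream site rose by 9.91 ± 1.36 points, from a partner level of 75.2%, and no run formed, whereas downstream the run covered 6 sites to 56 bp.

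Beyond the run, non_nuc differences changed sign with distance. The site at 89 bp downstream was higher in BANP in all 3 libraries, by 18.5 ± 10.7 points (SD, n = 3), and those at 94 and 100 bp differed by -2.32 ± 12.2 and -2.88 ± 3.90 points. The sites from 110 bp outward were lower. At 150 bp downstream BANP averaged 26.9% and BANP_r 55.5%, a difference of -28.6 ± 1.79 points (SD, n = 3), and 4 downstream sites were lower by at least 10 points in all 3 libraries. In nuc 1 site was, at 100 bp, with a difference of -33.6 ± 8.25 points. The mean difference in nuc was nevertheless below 0 at every site from 89 to 150 bp downstream, with the libraries far apart at most of them. At 94 bp the differences were 2.40, -49.6 and -48.7 points in libraries 1, 2 and 3, and at 123 bp 0.140, -46.8 and -34.9. The unphased constructs have no shared site that far downstream, since their last one lies at 89 bp. These classes were compared side by side without a test. The other 5 pairs of nuc and non_nuc, ATF4, CTCF, OctSox, REST and TRP53, had their members in different pools and are not compared here.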

How the data were processed

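Amplicon NOMe-seq values were taken from the GCH files of the 36 unphased libraries, and for BANP from those of its nuc and non_nuc pools. At each cytosine the authors deposited a methylated fraction, printed here in percent. Phenol and chloroform extraction, bisulfite conversion, PCR and NEBNext library preparation are recorded in the labels' protocols, and trimming by Trimmomatic 0.32 in the submitters' processing notes. Aligner, caller, coverage filter and build are not given in the sources used here. These files hold no counts, so no count model or interval from depth was used, although the design foresaw counts as possible.

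Values were converted to log2((f + 0.01)/(1 - f + 0.01)). Motif minus partner was taken within each library and entered into limma 3.58.1 (R 4.3.3), using Benjamini-Hochberg adjustment over all 209 sites of same-pool pairs. Constructs of 1 library share its DNA, PCR and sequencing, so the library was the pair. Bands, each construct against the median of the others in its pool, and the unpaired fit of all pairs were tested likewise. Tables were handled with Python 3.11.15, numpy 2.4.6 and pandas 2.3.3. The fit was also run on simulated data with noise drawn independently for each site. That run does not cover sites that move together between libraries. None of the values of the pair constructs was missing. A MAX::MYC construct with identical values in pools 13 and 17 was counted once. For each pair the text names the largest called rise and fall, the last site of each run and further sites that describe its shape. The members and lists were chosen with earlier results of these data known.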

Additional observations from a re-analysis of the deposited data

How the results depend on the processing

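The count of 65 called sites was 59 without the replicate block, that is with unpaired groups, and also 59 with robust moderation. The same 6 calls were lost in both, CTCF at position 8, MYBL2 at 53, POU5F1::SOX2 at 47 and 149, TGIF1 at 164 and TRP53 at 164. Counts of calls against the pool went from 320 to 179 without the replicate block and to 444 against the mean of the others. After each pair's median difference was subtracted, higher calls went from 51 to 27 and lower calls from 14 to 27. Of the 65 calls 38 kept their direction, 25 were lost and 2 turned, and 14 were gained, since subtraction treats a rise over most sites as the baseline. The 48 sites past 10 percentage points in both libraries became 75 at 5 points and 21 at 20 points, and 61 to 71 with 1 library left out. With 1 library there is no test. With reach counted by 10 points in both libraries, the upstream run shortened from 105 to 84 bp for BANP and from 93 to 80 bp for REST. It became 0 upstream for MYBL2 and 0 downstream for NFYB, POU5F1::SOX2, POU5F1B, TGIF1 and TRP53. For POU5F1::SOX2 only the first downstream site of the former run missed, at 9.57 and 10.9 points in the 2 libraries. Its sites at 33, 43 and 56 bp passed 10 points in both libraries. The filter on values from 0.05 to 0.95 removed no site. Depth is unknown, and with 2 libraries a pool the shared standard error rests on the spread over all pairs.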
